A study of Mus musculus with 8 samples.

Results

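Chromatin accessibility in the adult mouse liver was examined at 10 genes that coat lipid droplets, or make, break down or export triglyceride, namely Plin2, Plin4, Plin5, Cideb, Cidec, Pnpla2, Pnpla3, Dgat1, Dgat2 and Mttp. They were taken by name from 21938 protein-coding genes, and every deposited open region that overlapped one of these genes or lay within 10 kb of it was collected on the mm10 build. The data were ATAC-seq, in which a transposase cuts accessible DNA, of 50000 nuclei per library from frozen livers of adult C57BL/6 mice (C57BL/6J in the study's methods). There were 4 control libraries, whose titles carry the word cre, and 4 Alb-D2KO libraries, in which cre driven by the albumin promoter removes Dio2 from hepatocytes and leaves it in the other cells of the liver. Dio2 encodes the type 2 deiodinase, which makes the active thyroid hormone T3 from T4.

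The deposited values are 2 lists, 1 of 8031 regions called in control liver with no overlapping region in Alb-D2KO liver (control-only), and 1 of 250 regions called in Alb-D2KO liver alone (Alb-D2KO-only). Both rest on calls made over the libraries of a genotype together, so they hold no replicate error and no test between genotypes could be run. The lists do not give the depth of any library. A control-only region is the lack of a call in Alb-D2KO liver, and the lists do not say how far its signal fell. In bulk nuclei, fewer cells of a type and less opening per cell cannot be told apart. Dio2 itself had 0 regions of either list within 10 kb, so these lists hold no check of the deletion.

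Triglyceride is assembled at the endoplasmic reticulum, where the DGAT enzymes add the last acyl chain, and is stored in droplets bounded by a single phospholipid layer. Perilipins coat that surface and limit the access of lipases, CIDE proteins move lipid from small droplets into larger ones, and the lipase ATGL (Pnpla2) takes the first acyl chain off. In hepatocytes part of the stored lipid is loaded onto apolipoprotein B by the microsomal triglyceride transfer protein (Mttp) and secreted as very low density lipoprotein. Thyroid hormone acts through nuclear receptors that bind copies of AGGTCA spaced along the DNA, and the related receptors HNF4A and PPARA bind direct repeats of the same hexamer.

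Of the 10 genes, 9 had at least 1 control-only region in the gene body or within 10 kb, against 5499 of all 21938 protein-coding genes (25.1%). Dgat1 was the exception. The 9 genes shared 16 regions, of which 1 was counted for both Plin4 and Plin5. No Alb-D2KO-only region lay within 10 kb of any of the 10 genes, where 222 protein-coding genes (1.01%) had one, and the nearest was 260.0 kb away, at Pnpla2. A region overlapped the body itself in 4 of the 10 genes (Plin5, Cidec, Dgat2 and Mttp), against 15.7% of protein-coding genes, and in the other 5 genes with a region it lay in the flank. Apart from Plin2 and Dgat2, each gene had between 1 and 4 other protein-coding genes within 10 kb, and 9 of the 16 regions were closer to the start of another protein-coding gene than to that of the gene they were collected for.

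**Figure D1:**
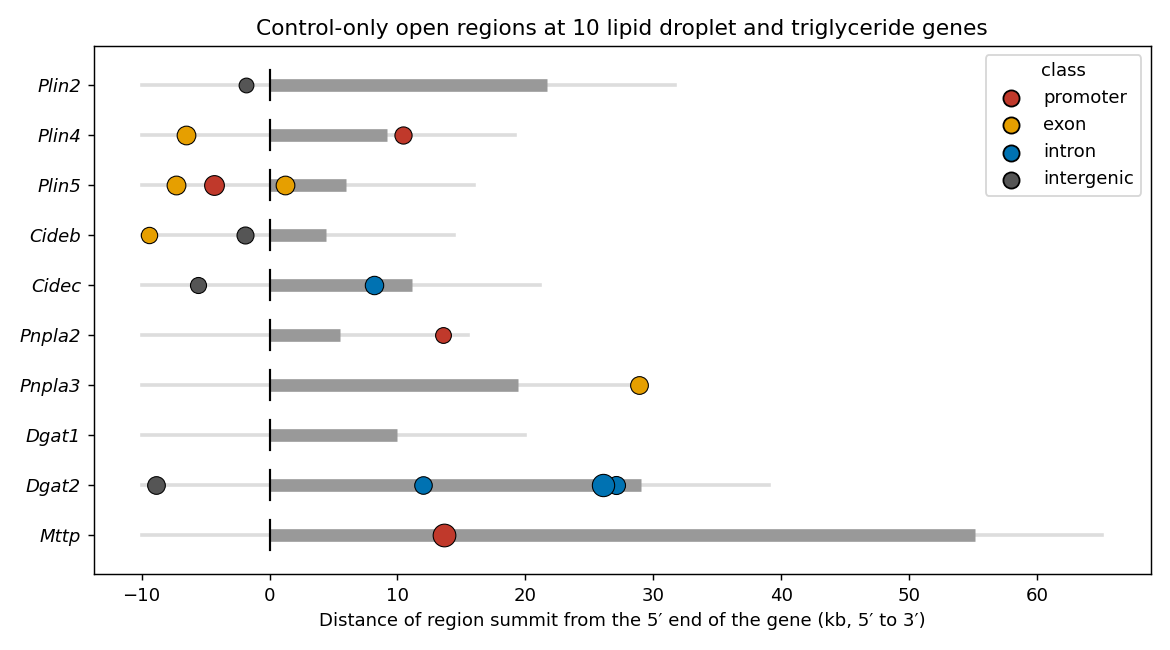
Control-only regions along the 10 genes, with the distance of each summit from the 5′ end of the gene in kb on the horizontal axis, dark bars for gene bodies, light lines for the 10 kb flanks, dot area proportional to the area of the region and colour for its class. Dgat2 carried 4 regions and Dgat1 none, and no dot sits on a gene's 5′ end, which is the outermost end of the annotated gene. The Mttp dot lies 38 bp from another annotated start of Mttp.

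Sequences are printed for 5 of the 16 regions, 1 for each of 5 genes, to show the letters of the DR1, E-box and SREBP matches placed again below. All 5 lie inside or upstream of the gene named, and other regions with matches are described without their sequence. All are from the mm10 assembly and read 5′ to 3′ on the strand of the gene. Capitals mark a direct repeat of the receptor hexamer with 1 base between (DR1) in the first pair. They mark the E-box CACGTG in Plin5 and Cidec, and in Dgat2 the sterol response element (SREBP) letters followed by a stretch that holds overlapping C/EBP and NF-Y matches. The Dgat2 run is the window around the summit and reaches past the edge of the region.
Mttp, upstream of the internal start (chr3:138131378-138131527, minus strand): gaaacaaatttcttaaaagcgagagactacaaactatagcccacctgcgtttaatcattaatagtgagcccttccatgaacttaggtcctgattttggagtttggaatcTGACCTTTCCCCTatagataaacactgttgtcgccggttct
Plin2, whole upstream region (chr4:86671846-86672102, minus strand): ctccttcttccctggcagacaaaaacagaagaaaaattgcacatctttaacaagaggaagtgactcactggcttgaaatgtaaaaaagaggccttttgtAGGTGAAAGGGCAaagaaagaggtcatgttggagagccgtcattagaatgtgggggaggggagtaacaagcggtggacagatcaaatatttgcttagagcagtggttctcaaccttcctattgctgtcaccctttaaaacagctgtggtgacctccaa
Plin5, coding exon 4 (chr17:56116274-56116423, minus strand): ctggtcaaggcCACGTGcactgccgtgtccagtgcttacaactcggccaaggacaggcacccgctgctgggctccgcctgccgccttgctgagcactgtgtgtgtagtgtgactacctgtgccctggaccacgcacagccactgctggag
Cidec, intron 5 (chr6:113427538-113427637, minus strand): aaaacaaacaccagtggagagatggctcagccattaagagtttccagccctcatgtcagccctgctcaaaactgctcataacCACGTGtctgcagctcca
Dgat2, upstream region (chr7:99191420-99191719, minus strand): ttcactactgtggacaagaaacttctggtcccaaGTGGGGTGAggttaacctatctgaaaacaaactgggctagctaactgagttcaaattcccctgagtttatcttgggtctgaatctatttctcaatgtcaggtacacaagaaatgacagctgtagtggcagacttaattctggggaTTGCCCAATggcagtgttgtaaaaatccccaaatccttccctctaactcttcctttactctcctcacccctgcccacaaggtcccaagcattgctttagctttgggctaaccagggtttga

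Among the droplet coat genes, Plin2, the main perilipin of hepatocyte droplets, had a single region, at chr4:86671846-86672102 and 1786 bp upstream of the gene, which lies at chr4:86648386-86670060 on the minus strand. It was intergenic, 257 bp wide, with a deposited area of 200.4. The area is that under the −log10 p curve along the region, as the peak caller wrote it. This was the lowest of the 16 values, close to the smallest area in the whole list (200), and stood at the 0.336 percentile of the list. The −log10 q at its summit was 2.95, against a list median of 3.14.

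Plin4 and Plin5 lie next to each other on chromosome 17, both on the minus strand, at chr17:56100591-56109803 and chr17:56111601-56117596. Plin5 coats droplets in tissues that burn fat and tethers them to mitochondria, whereas Plin4 is best known from adipocytes and muscle. The region they share, chr17:56116264-56116535, overlapped coding exon 4 of the 9 exons of Plin5, with its summit 1247 bp into the gene, and lay 6461 bp upstream of Plin4. Its area was 321.4 and its −log10 q was 2.99. Plin5 had a pair of further regions upstream. The nearer, chr17:56121722-56122135, was 4126 bp from Plin5 and covered the start of Lrg1, a secreted glycoprotein gene of the liver, with an area of 359.1 and a −log10 q of 3.59. The farther, chr17:56124707-56125248, was 7111 bp from Plin5 in an exon of Sema6b, 542 bp wide with an area of 324.0. The other region of Plin4, chr17:56099140-56099516, was 1075 bp downstream of the gene at the start of Hdgfl2, with an area of 271.5. Plin4 had no region in its body, and of the coat genes' regions the one inside Plin5 had its summit nearest to the 5′ end of its gene, ahead of the one upstream of Plin2 (1865 bp).

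Both CIDE genes had 2 regions. Cideb, which promotes the lipidation of very low density lipoprotein in hepatocytes, lies at chr14:55754050-55758458 on the minus strand. A narrow intergenic region of 193 bp at chr14:55760253-55760445 lay 1795 bp upstream of it, with an area of 265.7. That region was closer to the start of Ltb4r2, at 983 bp, than to Cideb. The other, chr14:55767801-55768159, was in an exon of Ltb4r1, 9343 bp from Cideb, with an area of 245.1. Both neighbours encode receptors for leukotriene B4. Cidec, the droplet fusion protein whose level rises in fatty liver, lies at chr6:113424634-113435760 on the minus strand. A region of 372 bp at chr6:113427463-113427834 fell in intron 5 of a transcript of 6 exons, with an area of 311.1 and its summit 8172 bp from the 5′ end. An intergenic region, chr6:113441245-113441430, lay 5485 bp upstream of Cidec and 1139 bp from the start of Jagn1, the nearest coding start. The nearest start of any gene, that of Gm43928, was 351 bp away. This region was the narrowest of the 16, at 186 bp, with an area of 236.7.

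Each lipase gene had a single region, beyond its 3′ end and at another gene. Pnpla2, at chr7:141455198-141460743 on the plus strand, had a region 7784 bp downstream, chr7:141468527-141469142, that covered the start of Cd151, a tetraspanin. It was wide, at 616 bp, but its area of 229.6 was at the 23.1 percentile and its −log10 q of 2.53 was the lowest of the 16. Pnpla3, a lipase of droplets that is tied to fatty liver in people, lies at chr15:84167837-84187236 on the plus strand. Its region, chr15:84196505-84197153, was in an exon of Samm50, a mitochondrial outer membrane gene, 9269 bp downstream of Pnpla3, and had an area of 289.6 and a width of 649 bp. Neither lipase gene had a control-only region in its body or within 5 kb of it.

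The DGAT enzymes stood at opposite ends of the count. Dgat1, at chr15:76502015-76511953, had 0 control-only regions within 10 kb, and the nearest lay 40860 bp from its body. The region of the other genes closest to the edge of the 10 kb flank was that of Cideb in Ltb4r1, at 9343 bp. Dgat2, at chr7:99153658-99182719 on the minus strand, is the enzyme that esterifies newly made fatty acids in liver, and had 4 regions, the most of the 10 genes. A pair lay in intron 7 of its 8 exons. The region chr7:99155449-99155731 had an area of 298.9, and chr7:99156233-99156925 had an area of 457.6 over 693 bp, the widest of the 16. The third region, chr7:99170622-99170890, was in intron 1, 516 bp from another annotated start of Dgat2, with an area of 283.6. The fourth, chr7:99191452-99191775, was intergenic, 8733 bp upstream, with an area of 287.6. With 3 regions in its body, Dgat2 was the only one of the 10 genes to reach that number, which 401 protein-coding genes (1.83%) did. The peak caller wrote the pair in intron 7 as separate neighbouring regions, and the counts of 3 and 4 rest on that. No other protein-coding gene lay within 10 kb of Dgat2, and of the 4 regions 3 had Dgat2 as the nearest coding start. The exception was the region closest to the 3′ end, which was 14308 bp from the start of Uvrag.

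Mttp, at chr3:138089854-138144968 on the minus strand, had 1 region, chr3:138131247-138131581. Its area of 474.0 was the highest of the 16 and stood at the 92.5 percentile of the list, and its −log10 q of 3.86 was also the highest. The region lay 13629 bp, by its summit, from the 5′ end of the annotated gene, which is the start of a transcript of 2 exons. It covered the start of a coding transcript of 18 exons at position 138131377, with the summit 38 bp from that start. It held 204 bases upstream of the start and 131 bases of the first exon, of which 54 are coding. In the longer transcript of 20 exons, which starts at position 138143388, the same bases fall in intron 3. Mttp was the only 1 of the 10 genes with a control-only region within 200 bp of an annotated start of its own, where 1303 protein-coding genes (5.94%) had one.

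Taken by class, the 16 regions divided evenly, with 4 each in promoter, exon, intron and intergenic sequence. In the whole list, 19.4% were promoter regions, 10.2% exon, 40.0% intron and 30.3% intergenic. A promoter region is one within 200 bp of any annotated start, and 3 of the 4 belonged to neighbours (Hdgfl2, Lrg1 and Cd151), with Mttp as the exception. Of the 10 genes, 4 had a promoter-class region within 10 kb (Plin4, Plin5, Pnpla2 and Mttp), against 9.5% of protein-coding genes. The areas ran from 200.4 to 474.0 with a median of 288.6, against a median of 278.0 and quartiles of 232.4 and 350.9 in the list. Of the 16 regions 10 were above the list median. Widths ran from 186 to 693 bp with a median of 347 bp, against 326 bp, and the median −log10 q was 3.06 against 3.14. Area and width therefore lay near the middle of the list. Their median distance to the nearest annotated start of any gene was 873 bp, against 3670 bp over the list. The 16 regions were collected in or within 10 kb of genes and the list was not. Neither this distance nor the classes can therefore set the 16 apart.

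**Figure D2:**
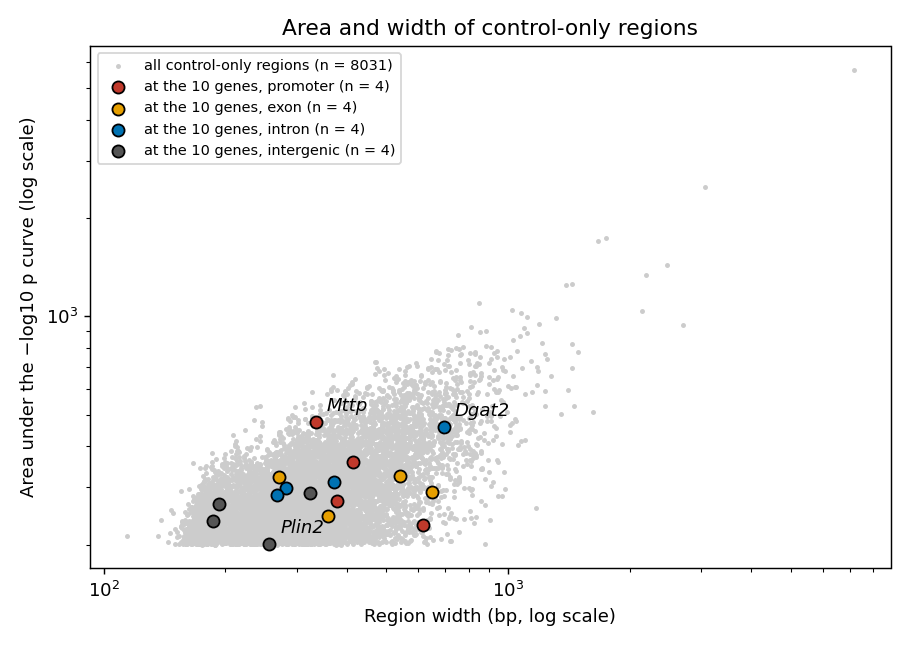
Area under the −log10 p curve against width in bp, both on log scales, for all 8031 control-only regions in grey and the 16 regions at the 10 genes coloured by class. The Mttp region (474.0) and the wide Dgat2 intron region (457.6) are the highest of the 16, and the Plin2 region (200.4) lies at the lower limit of the list.

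Long genes have more room for regions, so each gene was set beside protein-coding genes between 0.8 times its length and its length divided by 0.8, from 1771 to 2717 of them. The median length of the 10 genes was 10500 bp, shorter than that of all protein-coding genes (17400 bp). The share of similar genes with a control-only region ran from 17.3% for Pnpla2 to 30.9% for Mttp, with a mean of 23.0%. Added over the 10 genes these shares come to 2.3 genes, beside the 9 counted. For the genes with several regions, 29 of 2668 genes like Dgat2 (1.09%) had 4 or more, and 42 of 2230 genes like Plin5 (1.88%) had 3 or more. At least 2 regions were found at 6.31% of genes like Plin4, 5.7% of genes like Cideb and 7.07% of genes like Cidec. Plin2, Pnpla2, Pnpla3 and Mttp had a single region each, where 17.3% to 30.9% of genes of their length had at least 1. Gene expression was not analysed here, so the genes active in liver could not be set apart in this background, and the part of that in the counts was not tested.

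Because the peak caller numbers the control regions in order along the genome, the numbers missing from the control-only list were read as control regions removed for overlapping a region in Alb-D2KO liver. The full list of control regions was not used here, so this reading was not checked against it. Over the whole list, 64.1% of the control numbers were skipped in this way. Around each gene, these were counted between the last control-only region before the 10 kb window and the first one after it. At Dgat1 the span of 246.0 kb held 10 control regions, all skipped and by this reading open in both genotypes. With 0 control-only regions within 10 kb this outcome was fixed, because the span ends at the nearest control-only regions, so it only restates that count. Around Dgat2 4 of 10 control regions within 85.1 kb were control-only, and around Plin5 3 of 9 within 64.0 kb. Cideb had 2 of 5 within 56.6 kb, Cidec 2 of 13 within 381.0 kb and Plin4 2 of 12 within 125.0 kb. A single control-only region stood among 7 within 44.3 kb around Pnpla2 and among 3 within 207.0 kb around Mttp. It stood among 7 in a span of 2620.0 kb at Plin2 and among 5 in 1030.0 kb at Pnpla3. In spans that long, most of the stretch lies far from the gene. The spans of Plin4 and Plin5 overlap. Every gene had at least 2 skipped control regions in its span.

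None of the 10 annotated 5′ ends, each the outermost end of the gene, lay inside a control-only region. At Mttp the region did cover another annotated start, at position 138131377. The pair of control-only regions that flank the 5′ end of Plin5 were 5.19 kb apart, and 2 skipped control regions lay between them. The corresponding gap held 1 skipped region in 16.7 kb at Plin4, 1 in 13.4 kb at Cidec and 1 in 20.6 kb at Dgat2. The lists do not give the positions of skipped regions inside such a gap, so whether they sat on the start was not tested.

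**Figure D3:**
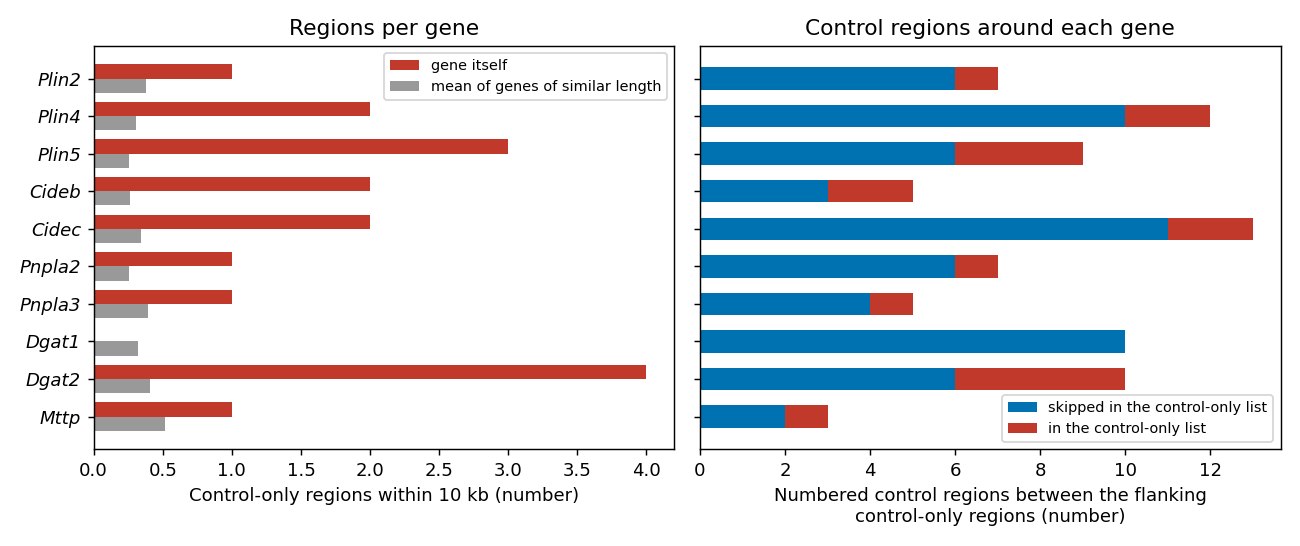
Left, number of control-only regions within 10 kb of each gene beside the mean number for protein-coding genes of similar length. Right, number of control regions between the flanking control-only regions around each gene, divided into those in the control-only list and those skipped in it. Dgat2 (4 regions) and Plin5 (3 regions) exceed the mean of their length groups (0.406 and 0.256) the most. With 0 control-only regions at Dgat1, all 10 control regions in its span are skipped by the way the span is drawn.

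The 300 bp around each summit were searched on both strands for fixed letters, as a description and not as binding sites. The receptor hexamer AGGTCA was in 5 of the 16 windows, against 30% of 8021 control-only regions. DR1, with AGGTCA repeated after 1 base and up to 2 mismatches, was in 3 of the 16, against 11.6%. These were at Mttp, Plin2 and the Hdgfl2 start below Plin4. The Mttp match, capitalised above, ended 29 bp upstream of the internal start of Mttp, and the Plin2 match was 1931 bp upstream of Plin2. The DR4 spacing of 4 bases, the classic thyroid hormone receptor arrangement, was in 0 of the 16 and in 6.08% of the list, with the same number of mismatches. The hexamer counts overlap the DR1 matches at Mttp.

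TTGCNNAA, for C/EBP factors, was in 3 of the 16 windows (18.4% of the list), at Dgat2 intron 1, upstream of Dgat2 and upstream of Cideb. TGTTTAC, for FOXA factors, was in 1 (6.66%), the wide Dgat2 region in intron 7. The E-box CACGTG was in 2 (7.47%), in exon 4 of Plin5 and intron 5 of Cidec. TCACNCCAC, for SREBP, was in 1 (1.3%), the region upstream of Dgat2, and lay 8958 bp from the 5′ end. CCAAT, for NF-Y, was in 4 (32.6%), and at the region upstream of Dgat2 it overlapped the C/EBP match. GGGCGG, for SP1 and KLF factors, was in 1 (17.7%), the Pnpla3 region. With 16 windows, none of these shares sets the 10 genes apart from the list. The GC content of the 16 regions ran from 44.4% upstream of Plin2 to 68.8% in Ltb4r1, with a median of 53.3% against 51.9% for the list.

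Of 32 other genes of triglyceride and droplet metabolism, 22 (68.8%) had a control-only region, again against 25.1%. An Alb-D2KO-only region was found at 0 of the 32, near the 1.01% of all protein-coding genes. The 32 genes are longer than the 10, with a median of 24800 bp. The shares of protein-coding genes of similar length averaged 26.1% and add to 8.34 genes, beside the 22 counted. Their 41 regions had a median area of 349.7, above the 288.6 of the 10 genes. In glycerolipid synthesis, the steps before DGAT, 7 of 11 genes had a region and 0 had one of promoter class, which 9.5% of protein-coding genes had. Both sterol esterification genes had one, and Soat2, which esterifies cholesterol in hepatocytes, had the largest area of all at 924.6, over its own start. In droplet formation and coat, 6 of 9 had a region. Those of promoter class were at Bscl2 (seipin, 568.0, at an internal start), Ldaf1 (261.8) and near Fitm1 (218.0), where the region covered the start of Dcaf11, 9629 bp from Fitm1.

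In lipolysis 4 of 6 genes had a region, and Mgll, which cleaves the last acyl chain, had 7, the largest an intron region with an area of 781.1 and 2 of them of promoter class. The first, of 682.3, covered the start of Mgll, and the other, of 581.1, lay 17579 bp from the nearest start of Mgll. Lipa, the lysosomal lipase, had a region of 719.5 over its own start, and Ces1d, a hepatic carboxylesterase, had a region of 324.1 that lay 89 bp from its start. In lipoprotein assembly, the partners of Mttp, 3 of 4 genes had a region. Apob, the protein that Mttp lipidates, had a region of 258.9 over its start. Sar1b had a region of 471.7 at a start shared with Sec24a. P4hb, the other subunit of the transfer protein, had 3 regions. Its promoter-class region, of 479.2, was at the start of Arhgdia, 8373 bp away. The largest at P4hb, of 602.1, was intergenic, with P4hb as its nearest coding start. In all, 8 of the 32 genes had a control-only region within 200 bp of a start of their own, as did 1 of the 10 and 5.94% of protein-coding genes.

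Marker genes of liver cell types were counted in the same way. Regions called in both genotypes are absent from the lists, so a marker without a control-only region may still be open. These counts therefore cannot check the tissue or its cell types. Of 6 hepatocyte markers 5 had a control-only region, Cps1 being the exception. Kupffer cell markers had a region in 0 of 6, stellate markers in 0 of 6, cholangiocyte markers in 1 of 6 and endothelial markers in 3 of 6. An Alb-D2KO-only region was found at 0 markers of any type, near the 1.01% of all protein-coding genes. The hepatocyte markers stood beside the 10 genes in this count, and the part of hepatocyte number or activity in these counts was not tested.

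**Figure D4:**
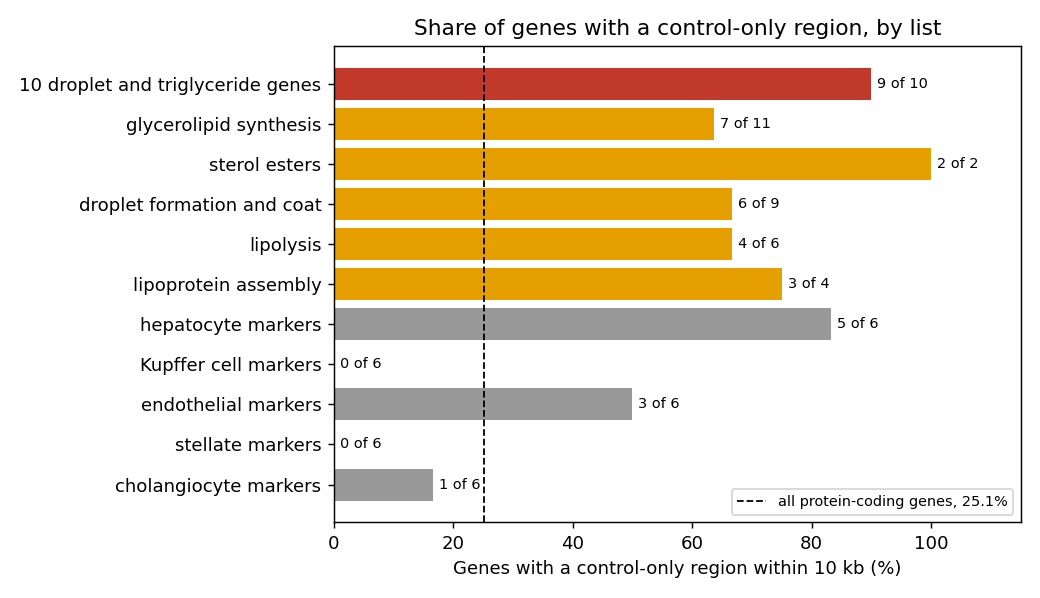
Percent of genes with a control-only region within 10 kb for the 10 genes, the other pathway genes by role and the markers of 5 liver cell types, with the count beside each bar and the share of all protein-coding genes (25.1%) as a dashed line. The 10 genes (9 of 10) and the hepatocyte markers (5 of 6) lie far to the right of the line, and the Kupffer and stellate markers are at 0.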

How the data were processed

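ATAC-seq was made by the study from 4 control and 4 Alb-D2KO libraries. The authors trimmed adapters with NGmerge, aligned reads to mm10 with BWA 0.7.17, kept primary alignments with a mapping quality of at least 30 once duplicates and chimeras were gone, and called regions with Genrich 0.6 at a q threshold of 0.05 on the libraries together. Regions found when each library was called alone had been set aside as a blacklist. Overlap between the genotypes was then subtracted to leave the regions particular to each. Tool versions also stand in the submitters' processing notes.

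The deposited signal value is an area, summed under the −log10 p curve. The deposited −log10 q is that of the summit, and the −log10 p of the summit was not used. The deposited score is the area per base times 1000, with a ceiling of 1000, and was only checked against the area. No area is under 200. Columns of per-sample values that were not used number 0.

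Regions were counted in gene bodies and 10 kb flanks with an overlap of at least 1 bp, and put in the first class met of promoter (within 200 bp of any start), exon, intron and intergenic. GENCODE M21 was used, an mm10 annotation that is not the release of the study. Sequences and motif windows of 300 bp came from the RefSeq GRCm38.p6 assembly (mm10), and 10 regions on unplaced contigs were not scanned. Python 3.11.15 with pandas 2.3.3 and numpy 2.4.6 was used, and the counting was tested on simulated regions. The text names all 10 genes and any protein-coding gene whose start is the nearest coding start to a region at them. Of 32 pathway genes, it names those with a promoter-class region or one of the 3 largest areas. The genes and lists were chosen with earlier results of these data known. Alternatives were other flanks, area and q limits, overlap rules, start sites and length bands. Lists pooled by genotype allow no replicate error, no interval over mice and no test.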

Additional observations from a re-analysis of the deposited data

How the results depend on the processing

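The count of 9 genes with a control-only region was also taken with other settings. The count of Alb-D2KO-only regions at the 10 genes stayed at 0, which no setting could change. The nearest such region was 260.0 kb away, beyond the widest flank of 50 kb, and the stricter limits can only remove regions. With gene bodies alone, 4 genes, 6 regions and 1 promoter region were left, against 15.7% of protein-coding genes and 12.6% of genes of similar length. With 5 kb flanks there were 10 regions at 7 genes (21.1% and 18.7%), and with 50 kb flanks 32 regions at all 10 genes, Dgat1 included (44.3% and 43.9%). Regions with an area of at least 300 gave 5 genes (12.9% and 11.9%), 6 regions with a median area of 341.6, 2 promoter regions and 13 pathway genes. The second share in each pair is for genes as long as the 10, not as long as the pathway genes. A −log10 q of at least 3 gave 10 regions at 6 genes (19.6% and 18.1%). Counting a region only where the gene had the nearest coding start gave 5 genes (Plin2, Plin5, Cidec, Dgat2 and Mttp), 7 regions and 1 promoter region (18.4% and 15.9%). A promoter window of 1000 bp gave 9 promoter regions in place of 4. In all, 27 values moved. The other 40, which include the Alb-D2KO-only counts of 0, were sorted by limits over regions or genes and not over mice. They were medians inside the interval of the reported median over regions, counts within 1.5 times the reported count, or shares inside the 95% Wilson interval of the reported share. Among these counts, the genes went from 9 to 7 with 5 kb flanks and to 6 with the q limit, the pathway genes went from 22 to 16 with gene bodies alone and to 17 with the q limit, and the promoter regions went from 4 to 6 with 50 kb flanks. The smaller counts follow from fewer regions or a narrower window. No paired analysis was possible because the lists pool the libraries of a genotype, and for the same reason no library could be left out. Depth is unknown, so whether a region lacked a call in Alb-D2KO liver for want of reads was not tested.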
